A study of Mus musculus with 28 samples.

Results

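Car1, Car2, Aqp1, Ermap, Rhd, Tfrc and Blvrb are 7 genes whose products serve the surface and cytosol of red cells and their precursors. They were followed on expression arrays of sorted mouse bone marrow cells. The members were chosen by symbol: a probe set, which is a group of array probes read as 1 value, was taken when the platform annotation named exactly 1 gene and that gene was on the list. All 7 symbols were found, among 12393 genes named in this way. They have 12 probe sets, of which 3 are array controls built from Tfrc and were kept out of every test.

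The series holds 28 arrays in 2 experiments. In the sorted experiment, surface markers divided normal marrow into 4 fractions. HSC (5 arrays) is a Lin-, sca+, kit+ fraction rich in blood stem cells. CMP (4 arrays) stands for common myeloid progenitor, GMP (4 arrays) for granulocyte-macrophage progenitor and MEP (3 arrays) for the progenitor of megakaryocytes and red cells. CMP, GMP and MEP were all Lin-, sca- and kit+. A further 6 arrays hold leukaemic cells that were Lin-, sca-, kit+, FCR+ and CD34+ (L-GMP), in a series whose title names the fusion oncogene MLL-AF9. In the transduced experiment, GMP expressed GFP, a green fluorescent protein (3 arrays), or MLL_AF9 (3 arrays). The labels give no strain, age, vector or promoter, and they do not say whether replicates came from different animals. The p-values therefore speak only of the spread among these samples, part of which may be technical. Each sample was about 10000 cells, and about 50 ng of total RNA was labelled. The design text calls the experiments noncomparable, because RNA was amplified on different days, so no level was set across them.

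Red cells carry carbon dioxide, water and iron across their membrane, and these genes belong to that work. Carbonic anhydrases, here Car1 and Car2, turn carbon dioxide and water into bicarbonate and protons. Aqp1 is a water channel, Rhd is the mouse Rhesus blood group protein and Ermap carries the Scianna blood group antigens. Tfrc, the transferrin receptor, takes up iron in all dividing cells and most strongly in haemoglobin-making ones. Blvrb, biliverdin reductase B, works in the breakdown of haem. Erythroid cells arise in the marrow from MEP, under transcription factors such as Gata1 and Klf1 that bind GATA and CACCC sequences near their target genes.

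Promoter sequence is shown for Aqp1, Ermap, Rhd and Blvrb, 4 members whose array levels were higher in MEP than in every other sorted group. The set of RefSeq (GRCm38.p6) windows used here covered 5 of the 7 members, Tfrc being the other, and held none for Car1 and Car2. For Tfrc and Blvrb it held 2 windows each, and 1 of each pair was left out because too few of its bases lay outside the gene. Each window ends where the annotated gene begins, lies outside the gene, and is written 5′ to 3′ along the gene's own strand. Capitals mark matches on either strand to a GATA word or to the CACCC-like word CCNCNCCC. The GATA words were AGATAA and its variants that open with T in place of the first letter (such as TGATAA), that close with G in place of the last letter (such as AGATAG), or that have both of these changes (TGATAG).
Aqp1: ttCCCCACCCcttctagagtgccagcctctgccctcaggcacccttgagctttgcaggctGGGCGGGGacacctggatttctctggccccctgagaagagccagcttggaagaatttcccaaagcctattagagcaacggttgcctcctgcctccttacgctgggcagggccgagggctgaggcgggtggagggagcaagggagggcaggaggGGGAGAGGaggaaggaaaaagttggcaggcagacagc
Ermap: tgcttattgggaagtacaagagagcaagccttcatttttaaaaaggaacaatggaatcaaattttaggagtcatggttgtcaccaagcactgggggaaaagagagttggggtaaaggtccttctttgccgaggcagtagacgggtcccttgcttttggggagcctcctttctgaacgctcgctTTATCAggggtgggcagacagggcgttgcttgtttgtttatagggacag
Rhd: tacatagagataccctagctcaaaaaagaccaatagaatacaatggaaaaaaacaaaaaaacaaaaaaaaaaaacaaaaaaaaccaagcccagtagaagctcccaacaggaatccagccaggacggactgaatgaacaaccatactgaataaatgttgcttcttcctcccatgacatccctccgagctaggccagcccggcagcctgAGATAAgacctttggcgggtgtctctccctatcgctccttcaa
Blvrb: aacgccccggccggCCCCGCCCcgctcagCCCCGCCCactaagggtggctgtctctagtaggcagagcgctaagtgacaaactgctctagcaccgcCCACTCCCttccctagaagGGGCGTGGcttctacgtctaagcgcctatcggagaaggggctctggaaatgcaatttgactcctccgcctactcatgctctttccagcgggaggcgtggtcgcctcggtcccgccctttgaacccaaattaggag
The Aqp1 window is chr6:55336049-55336298 on the plus strand, and the Ermap window is chr4:119190014-119190245 on the minus strand, 232 bases long after 18 bases inside the annotated gene were left out. The Rhd window is chr4:134864286-134864535 and the Blvrb window chr7:27447728-27447977, both on the plus strand. The Ermap and Rhd windows each held 1 GATA word, at 43 and 37 bases from the window's 3′ end, and no CACCC-like word. The Aqp1 and Blvrb windows held no GATA word and 3 and 4 CACCC-like words. The Tfrc window, chr16:32608646-32608895, held 3 CACCC-like words that overlap one another and no GATA word. Among 32851 RefSeq windows of 250 bases, 26.5% held a GATA word and 45.9% a CACCC-like word, so a match is common and is given as a description of these letters. No GATA word overlapped a CACCC-like word in the windows described.

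Levels are linear intensities scaled within the experiment, and a floor of 38.7 in the sorted experiment (78.0 in the transduced) replaced every lower value, because the order of values so close to background is not reliable. The median of all values was 108 in the sorted and 258 in the transduced experiment. A gene was tested when a probe set exceeded that median on at least 3 arrays: 7 of 7 members passed in the sorted experiment and 3 of 7 (Car2, Blvrb, Tfrc) in the transduced. Car1 and Aqp1 passed in the sorted experiment through MEP and CMP arrays, and Ermap and Rhd through the 3 MEP arrays with 1 CMP or 1 L-GMP array besides, so for these genes some difference was bound to be seen. Probes differ in brightness, so levels were compared between groups and not between genes. In bulk samples, fewer cells of a type and less RNA per cell cannot be told apart.

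The erythroid label of MEP was checked on 5 markers on the array. Klf1, Epor and Gata1 were high: the summed level of the 5 was 2484 to 3649 on the MEP arrays, 539 to 979 in CMP and 387 to 506 in HSC, GMP and L-GMP. The late markers were not high on the probe sets read. Alas2, the erythroid haem synthesis enzyme, lay between 135 and 149 in MEP and between 88.7 and 146 elsewhere. The haemoglobin gene Hba-a1 lay between 113 and 132 in MEP and between 127 and 233 elsewhere. Each was read on 1 probe set, and probe sets that name several genes were left out. Whether this signal is above background was not tested, so the values do not show that MEP lacked late transcripts. Granulocyte markers, such as Mpo, summed to 1490 to 4237 in MEP and 27986 to 32141 in GMP. The titles call CMP FCR+ with low CD34 and GMP FCR+ with high CD34, whereas Fcgr3 was at the floor on 2 of 4 CMP arrays and at most 52.6 on the others, against 586 to 1000.5 in GMP. Cd34 was 598 to 895 in CMP and 447 to 554 in GMP. The groups are named here as in the titles. The log2 ratio of 3′ to 5′ control signal, a measure of RNA length, was 3.10 ± 0.10 (SD, n = 3) in MEP, 3.09 ± 0.15 (SD, n = 5) in HSC, 3.0 ± 0.06 (SD, n = 4) in CMP, 2.92 ± 0.31 (SD, n = 4) in GMP and 2.85 ± 0.08 (SD, n = 6) in L-GMP.

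The 7 genes did not form 1 pattern. Car1, Aqp1, Ermap, Rhd and Blvrb were higher in MEP than in each of the other sorted groups. Car2, and Tfrc on its brightest probe set, 1452661_at, were far above the median of all values in every group. All differences below come from 1 limma fit over the 22 sorted arrays and 8422 genes, a change is the difference of mean log2 levels with its standard error, and a gene was called when its Benjamini-Hochberg adjusted p over all 8422 genes was under 0.05.

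**Figure D1:**
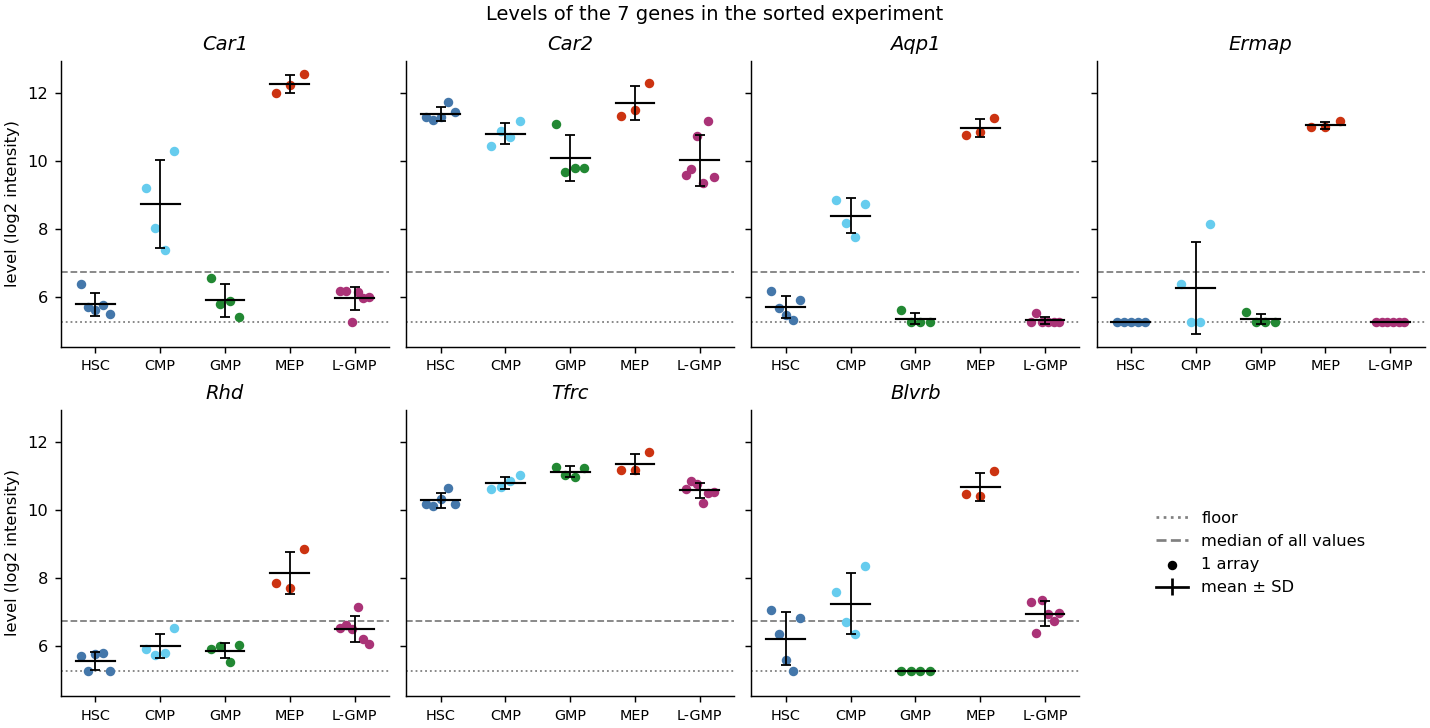
Level (log2 intensity) of each gene on the 22 sorted arrays, by group, with 1 point per array, the mean ± SD in black, the floor dotted and the median of all values dashed. Car1, Aqp1, Ermap, Rhd and Blvrb separate MEP from all other groups. Car2, and Tfrc on probe set 1452661_at, lie far above the median on every array.

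Car1 encodes the carbonic anhydrase that is abundant in red cells. On the MEP arrays its intensity was 4145, 4824 and 6057. On the CMP arrays it was 593, 261, 168 and 1272. All MEP arrays were above all CMP arrays, and all CMP arrays above those of the remaining groups. In HSC the values were 82.9, 52.2, 49.0, 53.8 and 45.5, and in GMP 94.0, 55.3, 58.5 and 42.2. In L-GMP the lowest array was at the floor, the median was 67.1 and the highest 72.8. HSC, GMP and L-GMP therefore overlapped, all below the median of the experiment. Car1 was 89.4-fold higher in MEP than in HSC (log2 change 6.48 ± 0.43, adjusted p = 2.2e-10) and 82.6-fold higher than in GMP (6.37 ± 0.45, adjusted p = 4.7e-10). Against CMP the difference was 11.6-fold (3.54 ± 0.45, adjusted p = 5.7e-06). CMP exceeded HSC by 7.70-fold (2.94 ± 0.39, adjusted p = 2.5e-05). Between neighbours in the rest of the order, L-GMP and GMP differed by 0.05 ± 0.38 and GMP and HSC by 0.11 ± 0.39, neither beyond the spread. With the floor at the 50th percentile, the Car1 change between MEP and HSC was 5.52.

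Car2 encodes a fast cytosolic carbonic anhydrase that many tissues make, and its pattern was unlike that of Car1. Its intensity was 2596, 2917 and 5032 in MEP and 2511, 2379, 2547, 3409.9 and 2768 in HSC. These groups overlapped, and the change of 0.32 ± 0.37 was not called (adjusted p = 0.568). In CMP the values were 1397, 1905, 1659.9 and 2340.1, all below MEP, but the change of 0.91 ± 0.39 between MEP and CMP was not called (adjusted p = 0.128). In GMP they were 2203, 823, 886 and 889, so that 1 array stood apart from the other 3. In L-GMP the lowest was 653, the median 821 and the highest 2306, with a second high array at 1719. Car2 was 3.08-fold higher in MEP than in GMP (1.62 ± 0.39, adjusted p = 0.0030) and 3.22-fold higher than in L-GMP (1.69 ± 0.36, adjusted p = 0.00054). It was lower in L-GMP than in HSC by 1.37 ± 0.31 (adjusted p = 0.00085) and lower in GMP than in HSC by 1.30 ± 0.34 (adjusted p = 0.0040), with no overlap in either case. In the order MEP, HSC, CMP, GMP, L-GMP, no neighbours were called apart. All Car2 values of CMP were below those of HSC, and this change, -0.59 ± 0.34 (adjusted p = 0.287), was called with only those 2 groups fitted (adjusted p = 0.0392).

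Car1 and Car2 lie on chromosome 3 in the RefSeq order Car13, Car1, Car3, Car2, with pseudogenes and a non-coding RNA gene among them. Neither Car13 nor Car3 was higher in MEP than in every other group. Car13 differed by 0.18 ± 0.34 between MEP and GMP and was not called (adjusted p = 0.749), nor was it called between MEP and any other group. Car3 was lower in MEP than in GMP, by 0.67 ± 0.24 (adjusted p = 0.0423), and than in CMP, by 1.06 ± 0.24 (adjusted p = 0.0029), and higher than in L-GMP, by 0.77 ± 0.22 (adjusted p = 0.0071). Its change between MEP and HSC was -0.59 ± 0.23 (adjusted p = 0.0546). Of 6 other carbonic anhydrases tested, none was called higher in MEP than in GMP, and Car9 and Car3 were lower.

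Aqp1, like Car1, was highest in MEP and next highest in CMP. Its intensity was 1752, 1864 and 2476 in MEP and 465, 292, 217 and 431 in CMP. In HSC it was 71.9, 50.7, 44.0, 40.2 and 59.6. In GMP it was 49.0 on 1 array and at the floor on 3, and in L-GMP it was 45.7 on 1 array and at the floor on 5. MEP lay above CMP and CMP above the rest without overlap. Aqp1 was 38.5-fold higher in MEP than in HSC (5.27 ± 0.21, adjusted p = 1.4e-13), 5.98-fold higher than in CMP (2.58 ± 0.22, adjusted p = 2.3e-08) and 6.45-fold higher in CMP than in HSC (2.69 ± 0.19, adjusted p = 2.0e-09). The folds of MEP over GMP and L-GMP, 48.9 and 50.5, depend on the floor: for Aqp1 in MEP against GMP the change was 5.61 ± 0.22 (adjusted p = 6.5e-14), and 6.0 and 4.22 with the floor at the 10th and 50th percentiles. HSC exceeded GMP by 0.34 ± 0.19 (adjusted p = 0.160), which was not called. Aqp1 also marks endothelium. Of 6 endothelial and stromal markers, all on the array, the summed level was 797 to 1190.4 in MEP, 697 to 1481 in CMP, 691 to 1421 in HSC, 424 to 626 in GMP and 507 to 898 in L-GMP. Pecam1 was at the floor on every HSC, CMP, GMP and MEP array and Cdh5 was at most 45.3 there, and in L-GMP they reached 75.5 and 64.6. Tek was higher in MEP than in GMP by 1.67 ± 0.23 (adjusted p = 5.7e-06) and than in L-GMP by 1.94 ± 0.21 (adjusted p = 1.2e-07). Kdr was higher in MEP than in GMP by 0.78 ± 0.21 (adjusted p = 0.0092) and than in L-GMP by 0.56 ± 0.20 (adjusted p = 0.0252). Vcam1 and Col1a1 were not called in either, and none of the 4 tested markers was called between MEP and HSC or CMP. The part of these markers in the Aqp1 values was not tested.

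Ermap was close to an on or off signal. It was 2039.8, 2054 and 2309.7 in MEP and at the floor on all 5 HSC and all 6 L-GMP arrays. In GMP 1 array was at 47.2 and 3 were at the floor. In CMP the values were 83.3 and 284 on replicates 1 and 4, and the other 2 arrays were at the floor. Ermap was at least 55.1-fold higher in MEP than in HSC (5.78 ± 0.39, adjusted p = 2.6e-10) and at least 55.1-fold higher than in L-GMP (5.78 ± 0.38, adjusted p = 4.2e-11), where the bound is the floor. It was at least 27.6-fold higher than in CMP, 2 of whose 4 arrays were at the floor (4.79 ± 0.41, adjusted p = 2.4e-08). Without CMP replicate 4 that Ermap change was 5.41 (adjusted p = 6.3e-14). The bound moves with the floor: the MEP to HSC change was 6.52 with the floor at the 10th percentile and 4.31 at the 50th. CMP exceeded L-GMP by 1.0 on the log2 scale (adjusted p = 0.0250), though 2 CMP arrays were at the floor too. Without CMP replicate 4 the Ermap change between L-GMP and CMP was -0.37 (adjusted p = 0.0864), without CMP replicate 1 it was -0.96 (adjusted p = 0.0587), and with only those 2 groups fitted its adjusted p was 0.116.

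Rhd had low signal in all groups but MEP. It was 230.3, 211 and 462 in MEP, all above every array of the other groups. In L-GMP the lowest was 66.8, the median 91.1 and the highest 143. In CMP it was 60.7, 53.2, 55.7 and 92.0, in GMP 60.6, 63.7, 46.2 and 64.8, and in HSC 52.2, 54.2 and 55.9 with 2 arrays at the floor. Only MEP lay wholly above the median of the experiment, which 1 L-GMP array also passed. Rhd was 5.97-fold higher in MEP than in HSC (2.58 ± 0.25, adjusted p = 7.1e-08; 1.39 with the floor at the 50th percentile) and 3.09-fold higher than in L-GMP (1.63 ± 0.25, adjusted p = 1.1e-05). L-GMP in turn was above HSC without overlap, by 0.95 ± 0.21 (adjusted p = 0.00077), and above GMP by 0.64 ± 0.22 (adjusted p = 0.0312). Both L-GMP differences lie near background: with the floor at the 50th percentile each was 0.07 and neither was called (adjusted p = 0.733 and 0.796). Without GMP replicate 3 the Rhd change between L-GMP and GMP was 0.53 (adjusted p = 0.116), and without GMP replicate 1, L-GMP replicate 2 or L-GMP replicate 4 its adjusted p was 0.0503, 0.0531 and 0.0723. With no filter on low values it was 0.0554.

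Tfrc, whose product brings transferrin-bound iron into the cell, was bright in all groups on probe set 1452661_at. It was 2339.6, 2327 and 3342 in MEP and 2477, 2109.7, 2027 and 2449 in GMP, which overlapped. In CMP it was 1587, 1634, 1866 and 2099.9, and in HSC 1170.3, 1105, 1294, 1621 and 1153. In L-GMP the lowest was 1175, the median 1541 and the highest 1843. Every MEP array was above every HSC, CMP and L-GMP array. Tfrc was 2.09-fold higher in MEP than in HSC (1.07 ± 0.16, adjusted p = 1.7e-05) and 1.71-fold higher than in L-GMP (0.78 ± 0.15, adjusted p = 0.00024). The difference from GMP was 0.22 ± 0.16 (adjusted p = 0.356). GMP exceeded HSC by 0.85 ± 0.14 (adjusted p = 7.6e-05), and L-GMP was below GMP by 0.56 ± 0.14 with no overlap (adjusted p = 0.0037). The differences of 0.56 ± 0.16 between MEP and CMP (adjusted p = 0.0215) and 0.51 ± 0.14 between CMP and HSC (adjusted p = 0.0226) were called, and both were lost when single arrays were left out. Without MEP replicate 3, CMP replicate 1 or CMP replicate 2, the Tfrc change between MEP and CMP had an adjusted p of 0.181, 0.0637 and 0.0629. Without HSC replicate 2 or 5, or CMP replicate 3 or 4, that between CMP and HSC had an adjusted p of 0.0609, 0.0539, 0.0554 and 0.0992. Both were also lost on the deposited Tfrc values with no scaling (adjusted p = 0.0620 and 0.0525), and the first with only MEP and CMP fitted (0.0785).

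The 3 Tfrc probe sets did not show the same pattern. On 1422966_a_at the intensity was between 114 and 186 on all 22 arrays, all groups overlapped, and no comparison was called. On 1422967_a_at every HSC, CMP and L-GMP array was at the floor, and 1 MEP array, at 107, was the only one above 44.3. The statements on Tfrc therefore rest on 1452661_at, the brightest of the 3. The array's own control built from the middle of Tfrc lay between 40.3 and 205.

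**Figure D2:**
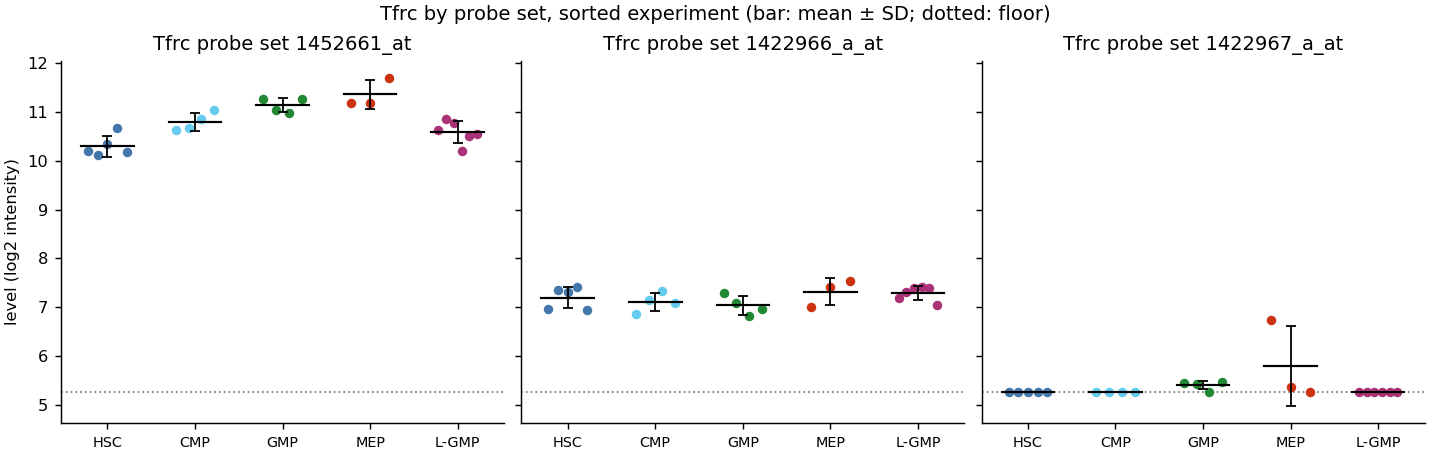
Level (log2 intensity) of Tfrc on its 3 probe sets that are not array controls, by sorted group, with 1 point per array, the mean ± SD in black and the floor dotted. The group order seen on 1452661_at is not seen on 1422966_a_at, where all groups overlap, and most arrays of 1422967_a_at are at the floor.

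Blvrb was 1428, 1379.6 and 2280.4 in MEP and 192, 105, 82.1 and 325 in CMP. In HSC it was 134, 81.1, 48.3 and 113 on 4 arrays and at the floor on 1. In GMP all 4 arrays were at the floor. In L-GMP the lowest array was 83.3, the median 125 and the highest 164. L-GMP thus lay above GMP on every array, and overlapped HSC and CMP. Blvrb was 22.2-fold higher in MEP than in HSC (4.47 ± 0.39, adjusted p = 1.3e-08), 10.8-fold higher than in CMP (3.44 ± 0.41, adjusted p = 2.5e-06) and at least 42.7-fold higher than in GMP (5.41 ± 0.41, adjusted p = 1.3e-09). It was 13.3-fold higher in MEP than in L-GMP (3.73 ± 0.38, adjusted p = 4.9e-08). L-GMP exceeded GMP by at least 3.21-fold (1.68 ± 0.35, adjusted p = 0.00071), and CMP exceeded GMP by 1.98 ± 0.38 (adjusted p = 0.00075). The Blvrb change between MEP and GMP was 6.24 with the floor at the 10th percentile. With the floor at the 50th percentile it was 3.94, the change between L-GMP and GMP was 0.27 (adjusted p = 0.439), and that between GMP and CMP -0.61 (adjusted p = 0.128). The change between GMP and HSC, -0.94 ± 0.36, was called (adjusted p = 0.0409). It was lost without any single GMP array (adjusted p from 0.0691 to 0.0746) and without HSC replicate 1, 2 or 5 (0.109, 0.0727 and 0.102), and for Blvrb also with quantile normalization (0.0503), no filter (0.0742) or only the 2 groups fitted (0.0518).

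Counted over comparisons, most members were higher in MEP. Against HSC 6 of 7 were higher in MEP and none lower, where 32.9% of the 8422 genes were called in either direction with 15.5% higher and 17.4% lower. Against CMP it was 6 of 7, where 17.0% were called with 6.19% higher and 10.9% lower. Against GMP it was 6 of 7, where 27.5% were called with 11.9% higher and 15.6% lower. Against L-GMP it was 7 of 7, where 45.2% were called with 22.9% higher and 22.3% lower. Tfrc counts as higher against HSC, CMP and L-GMP on 1452661_at only. On its other kept probe set, 1422966_a_at, it was called in none of these. Ermap and Rhd could not have passed the filter without their MEP arrays, and Car1 and Aqp1 passed on MEP and CMP arrays alone, so the counts describe the genes and are not a test of them. The comparisons share the 3 MEP arrays, and the other groups recur in the comparisons that follow. The median change of the members from HSC to MEP was 4.47, against 0.03 over all genes.

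**Figure D3:**
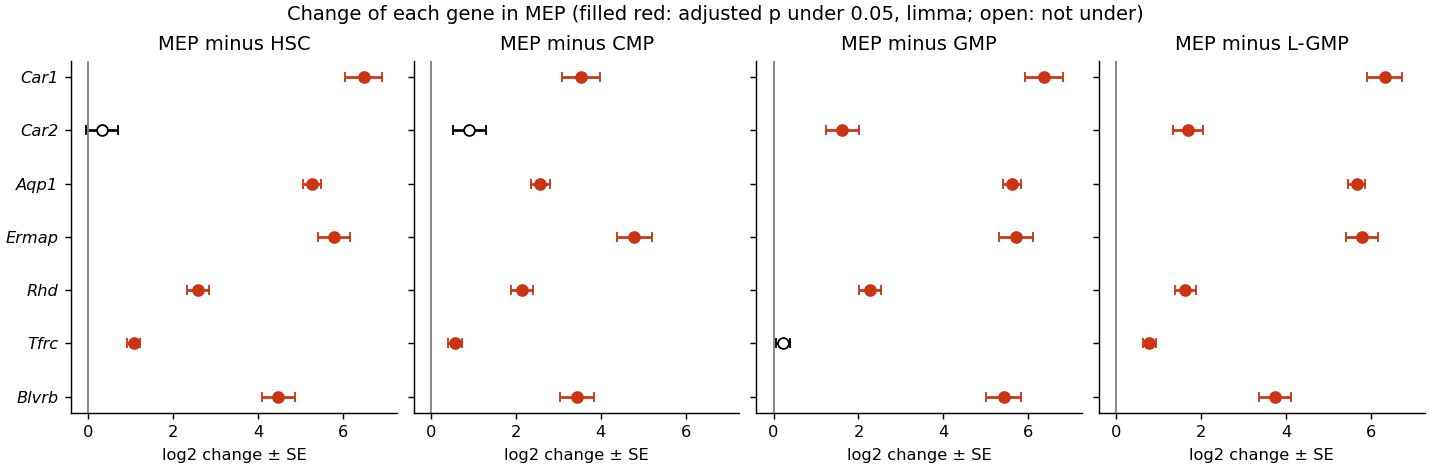
Change in log2 level of each gene in MEP minus HSC, CMP, GMP or L-GMP, with its standard error from the limma fit, filled where the adjusted p was under 0.05. Car2 is open against HSC and CMP and Tfrc against GMP, and the 4 panels share the 3 MEP arrays.

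Away from MEP the counts were smaller. L-GMP against HSC gave 1 member higher (Rhd) and 1 lower (Car2), where 47.2% of genes were called (23.4% higher, 23.8% lower). L-GMP against CMP gave 3 lower (Car1 by 2.78 ± 0.38, Aqp1 by 3.08 ± 0.18, and Ermap), where 39.9% were called (18.4% higher, 21.5% lower). L-GMP against GMP gave 2 higher (Blvrb, Rhd) and 1 lower (Tfrc), where 33.5% were called (15.2% higher, 18.3% lower). CMP against HSC gave 3 higher (Car1, Aqp1, Tfrc), where 13.4% were called (7.43% higher, 6.01% lower). GMP against HSC gave 1 higher (Tfrc) and 2 lower (Car2, Blvrb), where 41.2% were called (21.8% higher, 19.4% lower), and GMP against CMP gave 3 lower (Car1 by 2.83 ± 0.42, Aqp1 by 3.03 ± 0.20, and Blvrb), where 16.8% were called (8.18% higher, 8.60% lower). In L-GMP against CMP, L-GMP against GMP and GMP against HSC, 3 of 7 members called is near the share of all genes. In L-GMP against HSC 2 of 7 is below it. These counts say nothing particular about the members. Car1 and Aqp1 are among the 3 called in CMP against HSC and in GMP against CMP. Both passed the filter on MEP and CMP arrays alone, so those counts are no test of the members either. The Tfrc call in CMP against HSC was lost when single arrays were left out.

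For Car1, Ermap and Blvrb the 4 CMP arrays had an SD of 1.29, 1.36 and 0.89 on the log2 scale, and no other sorted group exceeded 0.48, 0.14 and 0.77. The floor hides spread elsewhere. Ermap was at the floor on every HSC and L-GMP array and on 3 of 4 GMP arrays, and Blvrb on every GMP array. Replicate 4 was the highest for 6 of 7 members, and for Aqp1 it was replicate 1. From highest to lowest the order was replicate 4, 1, 2, 3 for Car1 and Blvrb, with a 7.57-fold and a 3.96-fold range, and for Ermap replicate 4 exceeded replicate 1 and both exceeded the others. The erythroid regulator Klf1 had the same order (351, 187, 117 and 82.1), as did the erythropoietin receptor Epor and the platelet factor Pf4. The marker Gata1 did not: like Aqp1 it was highest on replicate 1 (286) and next on replicate 4 (234). The summed erythroid markers were 979, 855, 652 and 539 on replicates 4, 1, 2 and 3. On the same arrays the 7 megakaryocyte markers summed to 8745, 4649.6, 3494 and 3228. Summed monocyte and macrophage markers were also highest on replicate 4 (4406, against 3423 to 3495 on the others). Summed granulocyte markers were lowest there (11736, against 13911 to 14341). The part of these markers in the CMP values of the members was not tested. Without CMP replicate 4, Car1 was still higher in CMP than in HSC, by 2.42 (adjusted p = 3.4e-05), and Aqp1 by 2.57 (adjusted p = 2.3e-08). Among the MEP arrays replicate 3 was the highest for all 7 members, in the scaled and in the deposited values. That array also had the largest summed erythroid markers, 3649, and the smallest summed granulocyte markers, 1490.2. Its scale factor, 1.12, was the largest of the sorted arrays, and its deposited median, 90.8, was the lowest. Car1, Aqp1, Ermap, Rhd and Blvrb were above all other groups on replicates 1 and 2 as well, within the filter limits given above. The part of the differences between the MEP arrays in the values of the members was not tested.

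**Figure D4:**
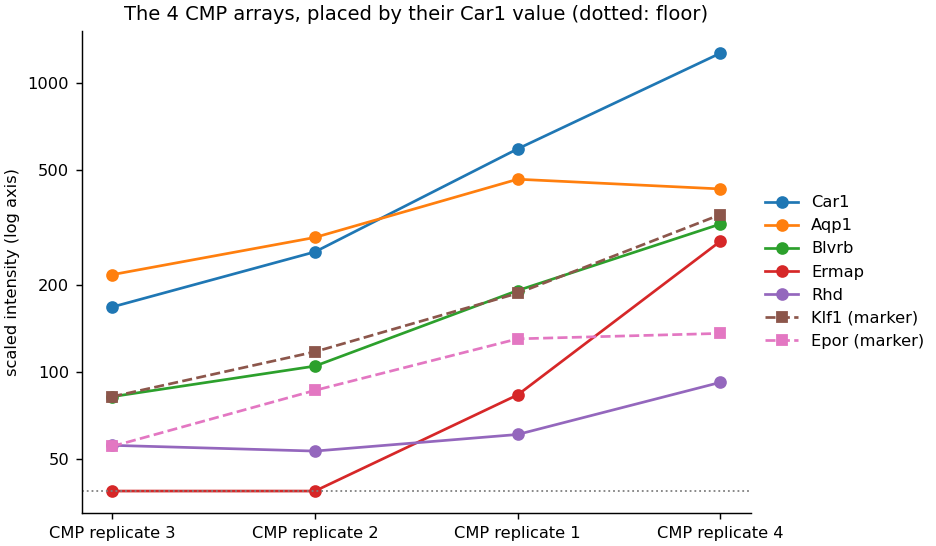
Scaled intensity (log axis) of 5 members and of the erythroid markers Klf1 and Epor on the 4 CMP arrays, placed by their Car1 value, with lines joining a gene's values and the floor dotted. Car1, Blvrb and Klf1 are lowest on replicate 3 and highest on replicate 4, and Ermap is at the floor on replicates 2 and 3.

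Likeness of pattern was measured as the root mean square difference of the 5 group means after centring each gene, in log2 units, over the 8422 tested genes. The gene nearest to Car1 was Aqp1, at 0.41, followed by Klf1 (0.51) and Ces2g, a carboxylesterase (0.53). Nearest to Aqp1 were Klf1 (0.37), Car1 (0.41) and Ces2g (0.43). Ermap was nearest to Ces2g (0.44), Klf1 (0.53) and the metallothionein Mt2 (0.68). Klf1 is thus among the 3 nearest genes of Car1, Aqp1 and Ermap. Klf1 was at the floor in HSC, GMP and L-GMP, and Aqp1 and Ermap were at or near it there. Part of this likeness is therefore set by the floor. Blvrb was nearest to the transporter Abcb4 (0.54), Epor (0.62) and Mt2 (0.63). Rhd was nearest to the haem-binding protein gene Hebp1 (0.24), Stx2 (0.25) and Zg16 (0.26). Car2 and Tfrc had other neighbours: Isg20 (0.10), Ggact (0.14) and Ddit3 (0.14) for Car2, and Dnajc11 (0.04), 2810004N23Rik (0.04) and Tomm40 (0.06) for Tfrc. Within the list, Car1 and Car2 were 2.14 apart, and Car1 and Tfrc 2.28. A gene with small changes has small distances to many others, so the values are comparable only for 1 member at a time.

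Other genes of red cell formation, from lists of related genes, were read from the same fit. They passed the same filter, and a list gene that is low outside MEP could pass it only through its MEP arrays. For such genes some difference was bound to be seen, so the list counts, here and below, describe the genes and are not a test of them. The counts for MEP against GMP stand beside 11.9% of all 8422 genes called higher in MEP and 15.6% called lower. Of 10 erythroid transcription factor genes 9 were higher in MEP than in GMP and 1 lower. Klf1 was at least 36.4-fold, Gfi1b at least 22.2-fold, Gata1 10.8-fold and Zfpm1 at least 6.94-fold higher, and Spi1, which drives the myeloid lineage, was 4.68-fold lower. Of 16 other tested membrane and skeleton genes 9 were higher and 2 lower. Rhag, the partner of the Rhesus protein, was at least 12.8-fold higher, followed by the blood group gene Kel (10.4-fold), Tspan33 (8.16-fold) and Icam4 (7.80-fold), which carries another blood group. Slc2a1, the glucose transporter, was 3.18-fold lower and Mpp1 1.86-fold lower. Slc4a1, the anion exchanger that works with carbonic anhydrase in the mature cell, differed by -0.22 ± 0.22 (adjusted p = 0.512). It was read on its brightest kept probe set alone, with a mean log2 level of 7.81 in MEP, 8.03 in HSC and 8.03 in GMP. Whether that signal is above background was not tested, so the Slc4a1 values do not show that its transcript was no higher in MEP. The median change over the membrane list was 0.92, against 0.05 over all genes.

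Genes of iron and haem differed between these groups as well. Of 8 haem synthesis genes 6 were higher in MEP than in GMP, led by Alad (3.49-fold), Cpox (2.67-fold), Urod (2.61-fold) and Fech (1.59-fold). Alas1, the form of the first enzyme that is not specific to red cells, was 11.8-fold lower. Of 10 iron genes 6 were higher, led by the second transferrin receptor Tfr2 (6.14-fold), the iron exporter Slc40a1 (3.20-fold), the ferrireductase Steap3 (2.66-fold) and Slc25a38 (1.63-fold). Hfe and Slc25a37 were 2.52-fold and 1.83-fold lower. Of 6 genes of haem and bilirubin handling, Hebp1 (4.80-fold) and Abcg2 (2.18-fold) were higher and Hmox2 (1.19-fold) lower. None of 4 globin genes was called between MEP and GMP, on probe sets that name 1 gene alone. Among 3 other aquaporins Aqp9 was at least 16.7-fold higher, and of 14 proliferation genes none was higher and Rrm2 (2.30-fold) and Aurka (1.59-fold) were lower. Tfr2 was thus called between these groups, where Tfrc was not, although the difference between the 2 genes was not tested.

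The same lists were read for MEP against L-GMP, a comparison that shares the MEP arrays with the one before, and in which 22.9% of all genes were called higher in MEP and 22.3% lower. Of the 10 transcription factor genes 7 were higher in MEP and 1, Spi1 (7.72-fold), was lower. Klf1 was at least 36.4-fold, Tal1 at least 23.9-fold, Gfi1b at least 22.2-fold and Gata1 11-fold higher. Of the 16 membrane genes 8 were higher, led by Icam4 (at least 24.6-fold), Rhag (at least 12.8-fold), Kel (10.3-fold) and Tspan33 (8.36-fold). The 4 that were lower were Mpp1 (2.77-fold), Slc2a1 (2.67-fold), Stom (1.44-fold) and Cd47 (1.38-fold). Of the haem synthesis genes 5 were higher, with Cpox at 7.72-fold, Alad at 7.0-fold, Urod at 3.06-fold and Uros at 2.10-fold, and Alas1 was 12.0-fold lower. Of the iron genes 5 were higher, with Tfr2 at 29.5-fold, Steap3 at 4.65-fold, Aco1 at 1.84-fold and Fth1 at 1.64-fold, and Slc25a37 (3.66-fold) and Hfe (1.31-fold) were lower. Among haem and bilirubin genes Abcg2 (7.44-fold) and Hebp1 (2.94-fold) were higher and Slc48a1 (1.34-fold) lower. The globins Hba-a1 (1.58-fold) and Hba-x (1.28-fold) were lower in MEP, on probe sets that name 1 gene alone. Whether the signal of these globin probe sets is above background was not tested. Car3 was 1.70-fold higher and Car9 1.99-fold lower, Aqp9 (at least 16.7-fold) and Aqp2 (1.29-fold) were higher and Aqp3 (2.37-fold) lower. Of the proliferation genes Mcm2 (1.19-fold) was higher, and Rrm2 (2.22-fold), Aurka (2.09-fold), Top2a (1.40-fold) and Birc5 (1.39-fold) were lower, so that 5 of 14 were called, a smaller share than the 45.2% of all genes.

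The transduced experiment asked whether MLL_AF9 changed GMP, and here the members showed no called change. It was fitted apart, over 7235 genes, of which 2 were called (0.0276%, with 0.0138% in each direction) and 739 had an unadjusted p under 0.05. Arrays of the same replicate number were alike here (correlations from 0.379 to 0.596), though the labels do not state a pairing, and the fit reported left the number out. A fit that takes the number as a block called 126 genes, none of them a member. None of the 3 tested members was called by limma, and 1 of them, Blvrb, had an unadjusted p under 0.05. Blvrb was 416, 439.9 and 290.5 with GFP and 266, 142 and 134 with MLL_AF9. All MLL_AF9 arrays were below all GFP arrays, and the change was -1.13 ± 0.30 (unadjusted p = 0.0068, adjusted p = 0.382). Over all alternatives run, the adjusted p for Blvrb lay between 0.0546, with the replicate number as a block, and 0.891. Monocyte and macrophage markers moved the same way: the 6 on the array summed to 29535, 18102 and 16193 with GFP and to 14676, 7491 and 9561 with MLL_AF9, and their part in the Blvrb values was not tested. Car2 was 1576, 1274 and 1548 with GFP and 1408, 1629.9 and 2696 with MLL_AF9. These groups overlapped (0.33 ± 0.25, adjusted p = 0.679). Tfrc was 4845, 5457 and 6075 with GFP and 5545, 6378 and 5935 with MLL_AF9, which overlapped too (0.13 ± 0.13, adjusted p = 0.774). On the other kept Tfrc probe set, 1422966_a_at, the values were 391 to 426 with GFP and 457 to 518 with MLL_AF9, without overlap, but the change of 0.23 ± 0.11 was not called (adjusted p = 0.549).

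The 4 remaining members were too low to test in transduced GMP. Aqp1 was at the floor of 78.0 on all 6 arrays and Ermap on 5, with 90.1 on 1 GFP array. Car1 was 133, 140.3 and 119.9 with GFP and 117 and 156 with MLL_AF9, whose other array was at the floor. Rhd was 88.1 to 107 with GFP and 89.1 to 110.4 with MLL_AF9. All of these lay below the median of 258, and the groups overlapped for each gene. Car1, Aqp1, Ermap and Rhd were thus low on the scale of this experiment, with GFP and with MLL_AF9.

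**Figure D5:**
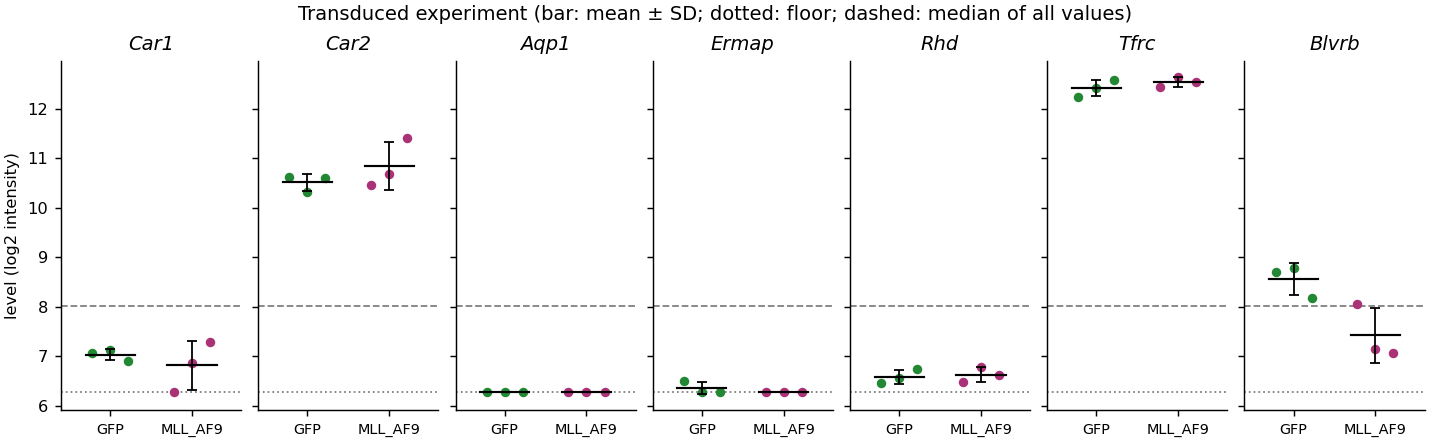
Level (log2 intensity) of each gene in GMP expressing GFP or MLL_AF9, with 1 point per array (n = 3 per group), the mean ± SD in black, the floor dotted and the median of all values dashed. Car2, and Tfrc on probe set 1452661_at, are far above the median in both groups. Blvrb is lower on all 3 MLL_AF9 arrays, and the other 4 genes lie between the floor and the median.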

How the data were processed

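RNA of 28 samples was measured on arrays with 22690 probe sets. The deposited values are intensities on a linear scale, made by the authors with MAS5 per the submitters' processing notes, and version and scaling target are not given in the sources used here. Some values are at or below 0, and how these arose is not given either. A change in the total RNA of a cell is lost when arrays are scaled to 1 level.

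Within each experiment, and without 64 control probe sets, arrays were scaled to the common mean after trimming 2% at each end (factors 0.923 to 1.12). Values under the 25th percentile were set to it, and log2 was taken. Probe sets above the median on at least 3 arrays that name 1 gene were kept (20380 of all name 1 gene, 691 several, 1555 none), and the brightest kept probe set represented a gene. Differences were tested with limma 3.58.1 in R 4.3.3 (lmFit, eBayes, two-sided, Benjamini-Hochberg over all genes, threshold 0.05), in 1 fit over 22 sorted arrays and another over 6 transduced arrays. The scripts were tested on simulated data. Precision is limited by the 3 to 6 arrays per group. No 2 arrays were identical.

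The members and gene lists were chosen with earlier results of these data known. All 7 members are named in every comparison. Of the lists, genes called in MEP against GMP or L-GMP are named, at most 4 a list and direction by size. Slc4a1 and Car13 fall outside that rule and were named after their values were seen. The 3 genes of nearest pattern are named for each member. Arrays of the same replicate number were alike in the transduced experiment (3 of 3 pairs, correlations of deviations from 0.379 to 0.596). In the sorted one they were not (18 of 37 pairs over 0.1). The labels do not state a pairing. Alternatives changed the normalization, the floor, the filter, the probe sets, the variance model, a 3′/5′ covariate, a replicate block, the groups fitted and the arrays left out. Promoters come from RefSeq, GRCm38.p6.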

Additional observations from a re-analysis of the deposited data

Results flagged for a closer look

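Single arrays stood apart from their group for 4 members, in 6 of the 30 groups of 4 to 6 arrays checked with Dixon's gap test at the 95% level. Chance alone passes about 1 group in 20, but that rate does not apply to 3 of the 6, Aqp1 in GMP and L-GMP and Ermap in GMP, where all other arrays were set to the floor of 5.27 (log2) and any single value above it passes. Car1 on HSC replicate 1 was at 6.37, where the other HSC arrays were at 5.75 or below, and Car1 on L-GMP replicate 3 was at the floor, 5.27, where the other arrays were at 5.98 to 6.19. Aqp1 on L-GMP replicate 2 was at 5.51, the other L-GMP arrays being at the floor. GMP replicate 1 was marked for 3 genes: Aqp1 at 5.61 and Ermap at 5.56, with the other GMP arrays at the floor, and Car2 at 11.11, with the others between 9.69 and 9.80. Only the Car2 value is far above background, and without that array Car2 was lower in GMP than in CMP by 1.05 (adjusted p = 0.0443), a difference that was not called with it (0.71, adjusted p = 0.208).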

How the results depend on the processing

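Of 2355 values of single members under the alternatives, 2279 stayed on their side of the threshold (those not called could change sign near 0), 41 were no longer called, 35 became called and none of those called reversed. In MEP against HSC, GMP and L-GMP the count of members called stayed at 6, 6 and 7 under every alternative run. The floor mattered most to the low genes. With it at the 50th percentile, the count was 1 in L-GMP against HSC and 1 in L-GMP against GMP, against 2 and 3 as reported and 2 to 3 in both under the alternatives other than leaving out single arrays. Leaving out each array in turn gave 5 to 6 members in MEP against CMP, 2 to 4 in L-GMP against HSC (4 without HSC replicate 4), 2 to 4 in L-GMP against CMP, 2 to 3 in L-GMP against GMP, 2 to 5 in CMP against HSC (5 without CMP replicate 2), 2 to 3 in GMP against HSC, 3 to 4 in GMP against CMP and 0 in MLL_AF9 against GFP.

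The replicate number as a block changed 3 calls in the sorted experiment, where the numbers do not pair the arrays: Rhd in L-GMP against CMP became called (adjusted p = 0.0102), and Tfrc in CMP against HSC (0.0595) and Blvrb in GMP against HSC (0.0836) were not. In the transduced experiment the block called 126 genes over the whole table and no member. Levels near the floor are limited by signal over background, and the number of arrays limits the rest.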
